A study of Mus musculus with 2 samples.

Results

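The insulin-like growth factor (Igf) genes described here were Igf1, a secreted ligand, Igf1r, the tyrosine kinase receptor through which it signals, the Igf-binding protein genes Igfbp2, Igfbp3, Igfbp4, Igfbp5 and Igfbp7, and the binding-protein-like gene Igfbpl1. They were taken by symbol, and all 8 were found once each among the 32285 genes of the count matrices. Igf1 and its relative Igf2 promote the growth and survival of embryonic tissue, and they circulate and rest in the matrix bound to Igfbps, which hold the ligands away from the receptor or deliver them to it. Igfbp2 to Igfbp5 bind the ligands tightly, Igfbp7 binds them weakly and is a protein of vessel walls, and Igfbpl1 carries an Igfbp-type domain and is known from newly born neurons. In the developing face the ligands are made mainly by mesenchyme, the loose connective tissue that cranial neural crest cells (CNCCs) form.

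The cells were CNCCs and other cells of the Wnt1CRE lineage, sorted by green fluorescence from E11.5 mouse heads and read by single-cell RNA sequencing of transcript 3′ ends. Control embryos carried 1 floxed copy of each transcription factor gene, Tfap2a wt/flox with Tfap2b wt/flox, so that each gene could be lost from 1 allele in their crest. Mutant embryos were Tfap2a flox/flox with Tfap2b flox/flox, and all embryos of both groups were Wnt1CRE+ and carried the reporter r26 mTmG/mTmG. Each group was 1 library made from 2 pooled embryos. Wnt1 drives Cre in the crest and also in part of the dorsal midbrain and hindbrain, so brain cells stood beside the crest mesenchyme and glia in the sort.

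After the filter 5625 control and 5587 mutant cells remained, holding 82313680 and 77251738 unique molecular identifiers (UMIs, each 1 counted transcript), with medians of 13478 and 12234 UMIs a cell, and 5 barcode sequences occurred in both libraries. With 1 library per group no test was possible, so every interval below is a 95% interval of counting error alone and says nothing of the spread between embryos. The libraries also differed in sex, 98.8% of control cells but 0.107% of mutant cells having a UMI of Xist, so genotype, sex and library cannot be told apart. Reads of the 3′ ends did not check the deletions: Tfap2a was at 19.5 CPM (counts per 1000000 UMIs of the cell class) in the control and 13.5 CPM in the mutant mesenchyme, and Tfap2b at 57.8 and 48.2 CPM. In glia Tfap2a was higher in the mutant, at 78.1 CPM in the control and 119.6 CPM in the mutant, and Tfap2b lower, at 233.7 and 195.4 CPM. Clusters were formed without the Igf genes and fell into mesenchyme (3808 control and 2878 mutant cells), neurons (740 and 1199), brain progenitors (729 and 1180) and glia (261 and 200), each with its defining markers present. The mesenchyme was divided into frontonasal-like, periocular and meningeal-like, maxillary-like, mandibular-like, proximal arch-like, second arch-like and mural-like regions, named from fixed markers. The second arch-like cells had more of all 5 Hox markers of that arch but were led by Cyp26a1 and Shisa3, and the proximal arch-like cells had Hoxa2 among their leading genes, so the border between them was loose.

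Across both libraries the Igf genes split by cell class. Igf1 and Igfbp4 were highest in mesenchyme, Igfbpl1 in neurons and Igfbp2 in brain progenitors, while Igf1r lay within a narrow band in all 4 classes. Igfbp3 and Igfbp7 had few UMIs in every class. Igfbp5 was the exception, since its level in the control was highest in brain progenitors and mesenchyme, which counting error did not separate, and in the mutant in glia. Between libraries, the widest difference of an Igf gene measured in whole classes was that of Igfbp5 in glia. By region, Igf1 was higher in the mutant in the arch regions and in frontonasal-like cells. By main value Igfbp2 was higher in every region but the mural-like one, with its widest ratio in frontonasal-like cells. Igfbp5 was lower in some of the arch regions of the mutant.

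**Figure D1:**
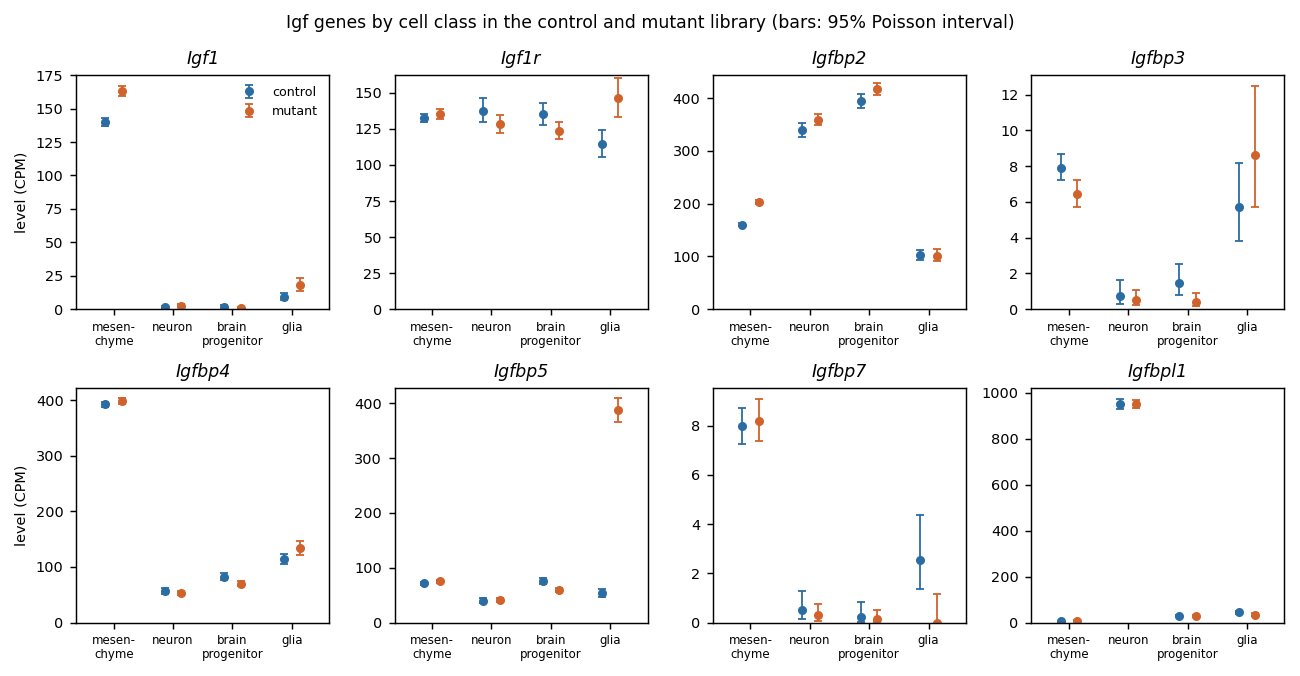
Level of each Igf gene in 4 cell classes, in CPM on an axis of its own for each gene, with control and mutant side by side; bars through the points are 95% counting intervals and each point is 1 library. Igfbp5 stands at 53.7 CPM in control glia and 387.8 CPM in mutant glia, while Igf1r lies between 114.3 and 146.1 CPM in every class of both libraries.

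Upstream sequence was read for the Igf genes because the alleles targeted in the mutant are those of 2 TFAP2 transcription factors, whose textbook binding motif is GCCNNNGGC. This motif reads the same on both strands. Of 32851 RefSeq promoters (build GRCm38.p6), 13.7% held it in the 250 bases before the start. Of the 8 Igf genes 7 had an entry, and Igfbp5 alone among them had a match, 64 bases before its start. Igfbp2 is the neighbour of Igfbp5 on chromosome 1, with 5457 bases between the 3′ ends of the pair, and its first window had no match. Both are shown as an example of a window with and a window without the motif, 5′ to 3′ on the strand of the gene, with the match in capitals; bases inside annotated exons were left out.
Igfbp5, chr1:72874885-72875115, minus strand: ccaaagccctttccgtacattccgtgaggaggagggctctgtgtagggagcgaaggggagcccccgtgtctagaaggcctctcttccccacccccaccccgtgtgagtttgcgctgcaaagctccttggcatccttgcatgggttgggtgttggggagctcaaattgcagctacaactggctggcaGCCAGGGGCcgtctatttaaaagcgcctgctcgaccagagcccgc
Igfbp2, chr1:72824230-72824479, plus strand: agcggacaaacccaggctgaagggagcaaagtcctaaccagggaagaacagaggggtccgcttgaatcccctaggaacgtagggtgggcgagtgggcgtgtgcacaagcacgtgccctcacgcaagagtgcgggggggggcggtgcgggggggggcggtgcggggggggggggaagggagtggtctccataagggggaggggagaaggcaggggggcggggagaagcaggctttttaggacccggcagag
A match to these letters is a description and not a bound site, and the window of Igf1 lay wholly within an annotated exon and is not shown.

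Igf1, the ligand, was a gene of the mesenchyme. Its level there was 140.1 CPM in the control and 163.3 CPM in the mutant. In neurons it was 1.5 and 2.57 CPM, and in brain progenitors 2.03 and 0.712 CPM, from no more than 34 UMIs in any of these 4 sums. At an equal depth of 5000 UMIs a cell, 34.8% (33.3 to 36.3) of control and 36.9% (35.1 to 38.8) of mutant mesenchyme cells had a UMI of Igf1, against 0.418% and 0.777% of neurons, the class taken as background. Without thinning the mesenchyme shares were 52.8% and 53.2%, at median depths of 14535.5 and 14380 UMIs, and those of neurons 1.49% and 1.83%, at 9567 and 9639. The cells of the mesenchyme and the neurons thus differed far beyond counting error in both libraries.

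Within the mesenchyme Igf1 was graded from the upper face to the arches. The control level was highest in the frontonasal-like region, at 310.4 CPM (300.4 to 320.7), and lowest in the proximal arch-like region, at 45.0 CPM (40.5 to 49.8), a ratio of 6.9. Between them came periocular and meningeal-like (178.9 CPM), mural-like (166.3 CPM), mandibular-like (83.8 CPM), maxillary-like (69.8 CPM) and second arch-like cells (68.4 CPM). The counting intervals of neighbours in this order overlapped for periocular and mural cells and for maxillary and second arch cells. In the mutant the frontonasal and proximal arch ends stayed in place, at 402.3 and 73.0 CPM.

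The mutant library had more Igf1 in 5 of the 7 regions. Second arch-like cells stood at 68.4 CPM in the control and 117.9 CPM in the mutant, a log2 ratio of mutant over control of 0.79 (0.46 to 1.12), and proximal arch-like cells at 45.0 and 73.0 CPM, 0.70 (0.50 to 0.90). Maxillary-like cells stood at 69.8 and 106.9 CPM, 0.62 (0.48 to 0.75). These 3 arch regions were each more than 1.5-fold apart and had no overlap of their counting intervals. Mandibular-like cells followed at 83.8 and 119.6 CPM, 0.51 (0.37 to 0.65), and frontonasal-like cells at 310.4 and 402.3 CPM, 0.37 (0.30 to 0.45). Igf1 had the 90th highest ratio of 9733 genes in maxillary-like cells and the 96th of 9243 in proximal arch-like cells. Periocular and meningeal-like cells (178.9 and 174.9 CPM) and mural-like cells (166.3 and 143.3 CPM) had intervals of the ratio that included 0. The whole mesenchyme gave a smaller ratio, 0.22 (0.18 to 0.27), and 0.34 when the mutant regions were given the weights they had in the control.

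The share of cells with Igf1 did not follow the level in every region. At equal depth 60.2% of control and 69.9% of mutant frontonasal-like cells had a UMI, and the intervals of the shares did not overlap. In mandibular-like cells the shares were 28.5% (25.3 to 31.9) and 28.5% (24.1 to 33.2), and in maxillary-like cells 23.0% (19.9 to 26.4) and 24.9% (21.2 to 29.0). In these 2 regions the 10 cells richest in Igf1 held 11.4% and 13.7% of its UMIs in the control and 20.4% and 17.8% in the mutant. Without those cells the log2 ratios were 0.39 in mandibular-like and 0.55 in maxillary-like cells, the latter then under 1.5-fold, and with cells thinned to equal depth they were 0.29 and 0.57. Second arch-like cells leaned on few cells most, the top 10 holding 49.5% of the control and 29.8% of the mutant UMIs. Without the top 10 of each library the ratio there was 1.23. These 10 were a larger part of the 141 control than of the 254 mutant cells, so that value does not treat the libraries alike.

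In glia Igf1 was low, with 46 control and 58 mutant UMIs, 9.05 and 17.9 CPM. The log2 ratio of 0.98 (0.40 to 1.57) rested on few cells, since the 10 richest held 82.6% and 91.4% of these UMIs and the ratio was -0.01 without them and 0.37 without called doublets. Igf1os, a gene antisense to Igf1, had 17 and 19 UMIs in the mesenchyme. Whether counting used strand was not stated, so reads of the pair cannot be told apart with certainty.

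**Figure D2:**
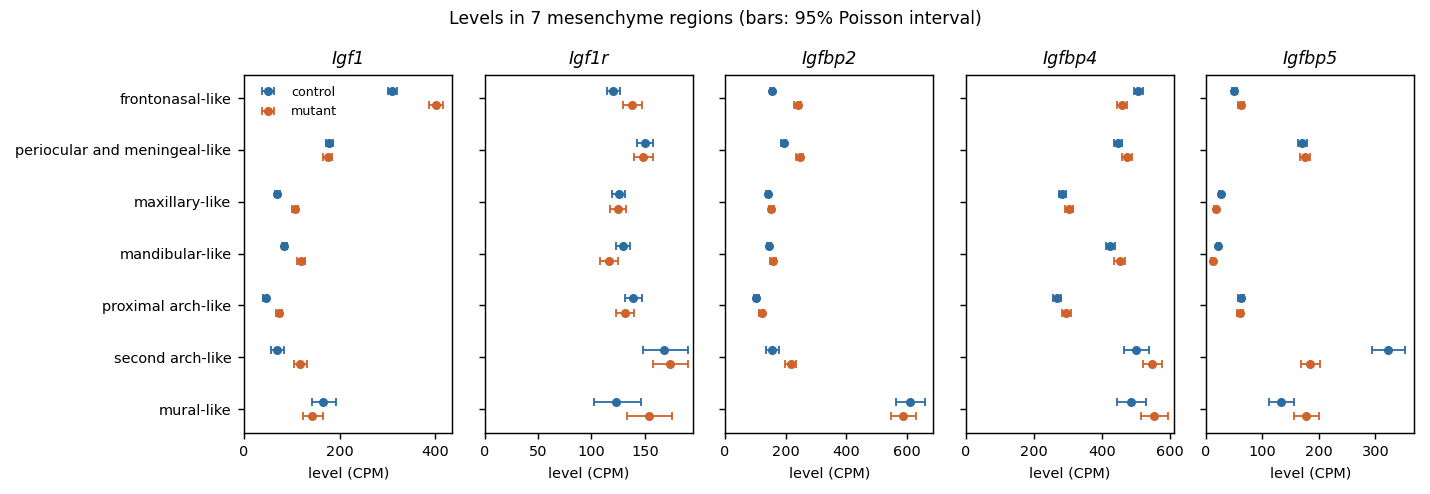
Level of Igf1, Igf1r, Igfbp2, Igfbp4 and Igfbp5 in the 7 mesenchyme regions of both libraries, in CPM on an axis of its own for each gene, with 95% counting intervals; each point is 1 library. Igf1 is highest in the frontonasal-like region (310.4 and 402.3 CPM) and Igfbp2 in mural-like cells (609.5 and 585.5 CPM).

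Igf1r, the receptor, was even across classes and near even across regions. In the mesenchyme it was at 132.6 CPM in the control and 135.1 CPM in the mutant, a log2 ratio of 0.03 (-0.02 to 0.08). Neurons had 137.7 and 128.1 CPM and brain progenitors 135.1 and 123.5 CPM. Its control levels by region ran from 120.6 CPM in frontonasal-like to 168.0 CPM in second arch-like cells, a ratio of 1.39, and no neighbours in that order had separate counting intervals. The ratio of mutant over control differed in sign between units: it was 0.35 (0.18 to 0.53) in glia, at 114.3 and 146.1 CPM, 0.19 (0.07 to 0.31) in frontonasal-like cells, and -0.15 (-0.28 to -0.02) in mandibular-like cells, at 129.1 and 116.4 CPM. At equal depth 47.5% of control and 47.2% of mutant mesenchyme cells had a UMI of Igf1r.

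Igfbp2, a binding protein made by epithelia and neural progenitors as well as mesenchyme, had its highest class level in brain progenitors, at 394.7 CPM in the control and 416.9 CPM in the mutant. Neurons had 339.6 and 358.6 CPM. In glia it was lowest, at 102.3 and 101.7 CPM. Neural groups were far apart. The roof plate and choroid plexus-like cells, a dorsal midline epithelium led by Ttr, were counted in none of the classes. These cells had 844.6 CPM in 44 control cells and 1348.3 CPM in 78 mutant cells, a log2 ratio of 0.67 (0.53 to 0.82). The 10 richest cells held 55.5% of the control and 45.2% of the mutant UMIs, and ratios of neural groups were not recomputed under the alternatives. Rhombic-lip and dorsal neuron-like cells had 554.9 and 593.8 CPM, whereas sensory neuron-like cells had 133.5 and 110.5 CPM, so the neural spread was wider than any difference between the libraries.

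In the mesenchyme Igfbp2 was at 160.3 CPM in the control and 203.1 CPM in the mutant, a log2 ratio of 0.34 (0.30 to 0.38). Mural-like cells, which wrap small vessels, had the most, at 609.5 and 585.5 CPM, with an interval of the ratio that included 0. The difference between libraries was widest in frontonasal-like cells, at 155.6 and 240.0 CPM, 0.62 (0.53 to 0.72), where Igfbp2 had the 124th highest ratio of 9674 genes. With cells thinned to equal depth that ratio was 0.42, under 1.5-fold, and the share of cells with a UMI was 50.1% (46.4 to 53.8) in the control and 60.3% (55.7 to 64.9) in the mutant. Second arch-like cells followed at 155.4 and 215.8 CPM, 0.47 (0.25 to 0.70), and periocular and meningeal-like cells at 193.5 and 246.5 CPM, 0.35 (0.26 to 0.44). The maxillary, mandibular and proximal arch-like ratios lay between 0.12 and 0.22, and that of maxillary-like cells was -0.06 at equal depth. By main value, frontonasal mesenchyme had the highest ratio for Igfbp2, whereas second arch-like, proximal arch-like and maxillary-like cells had the highest for Igf1. For Igfbp2 the intervals of the frontonasal and second arch ratios overlapped, so counting error did not separate these regions.

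Igfbp3 was found in few cells and was lower in the mutant mesenchyme. Its level there was 7.91 CPM in the control and 6.44 CPM in the mutant, a log2 ratio of -0.30 (-0.51 to -0.08), from 465 and 287 UMIs. Second arch-like (17.3 and 11.4 CPM), maxillary-like (14.1 and 10.5 CPM) and periocular and meningeal-like cells (12.7 and 9.76 CPM) held most of it. Frontonasal-like cells had 9 and 5 UMIs. All 7 regions had the lower value in the mutant, and the interval of the ratio excluded 0 in maxillary-like cells alone, at -0.42 (-0.79 to -0.06). At equal depth 3.06% (2.53 to 3.67) of control and 2.29% (1.77 to 2.92) of mutant mesenchyme cells had a UMI, shares whose intervals overlapped.

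Igfbp4, which binds both ligands and is cut by the protease Pappa, had a UMI in most mesenchyme cells, 82.1% in the control and 83.2% in the mutant at equal depth. Its level in the mesenchyme was 392.4 and 398.7 CPM, a log2 ratio of 0.02 (-0.01 to 0.05). By region it ran from 269.1 CPM in proximal arch-like to 507.8 CPM in frontonasal-like control cells, a narrower span than that of Igf1. Frontonasal-like cells had less in the mutant, at 459.2 CPM, a log2 ratio of -0.15 (-0.21 to -0.08), whereas the other 6 regions had ratios from 0.08 to 0.19. No region was 1.5-fold apart. Brain progenitors had 82.3 and 70.1 CPM, a log2 ratio of -0.23 (-0.37 to -0.09), and glia 114.5 and 133.8 CPM, 0.22 (0.04 to 0.41).

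Igfbp5, a binding protein held in extracellular matrix and known from muscle and bone, was the Igf gene whose libraries differed most in a whole class. Glia of the control held 273 UMIs of it, 53.7 CPM (47.5 to 60.5), and glia of the mutant 1258 UMIs, 387.8 CPM (366.6 to 409.8). The log2 ratio was 2.85 (2.66 to 3.05), a fold of 7.22, and only 6 of the 8056 genes measured in glia had a higher one. The difference lay in many cells. At equal depth 14.7% (10.6 to 19.6) of control and 63.8% (56.7 to 70.5) of mutant glia had a UMI, and 28.7% and 77.0% without thinning, at median depths of 17906 and 15279 UMIs. In neurons, taken as background, the shares at equal depth were 8.64% in both libraries. Mutant glia with 8 or more UMIs of Igfbp5 at equal depth made up 8.54% (5.06 to 13.3), against 1 of 259 control cells, and 36.2% of mutant glia against 85.3% of control glia had none. Leaving out the 10 richest cells of each library gave a log2 ratio of 3.30.

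**Figure D3:**
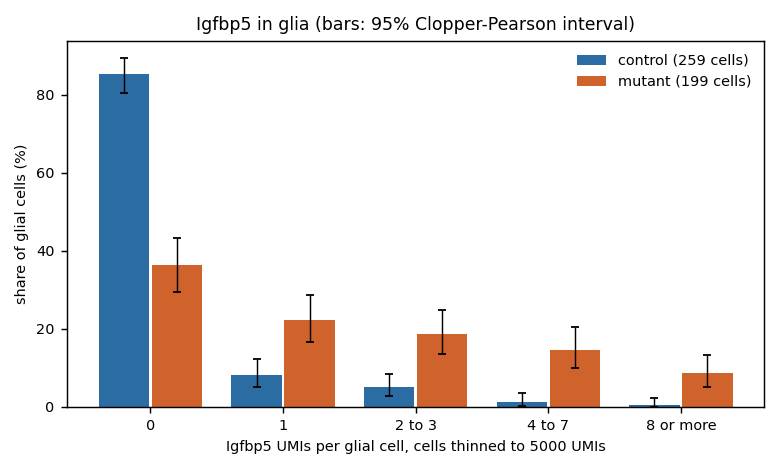
Share of glia, in percent of 259 control and 199 mutant cells, by the number of Igfbp5 UMIs a cell after thinning to 5000 UMIs; bars through the columns are 95% exact binomial (Clopper-Pearson) intervals. Among control glia 85.3% have no UMI, against 36.2% of mutant glia, and the mutant column is the taller one in every class of 1 UMI or more.

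The glia of both libraries were not alike in makeup, and the values that moved with Igfbp5 are given here. All 6 glial markers were higher in the mutant, with a summed level of 616.6 CPM in the control and 996.2 CPM in the mutant. Summed neuron markers were at 2476.4 and 407.2 CPM and summed melanocyte markers at 73.8 and 45.6 CPM. Sox10, which defines crest glia, had a UMI in 66.7% of control cells of the class and 91.0% of mutant ones. Called doublets were 3.07% and 7.5% of it. The part of the neuron and melanocyte markers in the difference was not tested. Within cells with a UMI of Sox10 the level of Igfbp5 was 70.8 CPM in 174 control cells and 395.6 CPM in 182 mutant cells, a log2 ratio of 2.48 (2.28 to 2.69). Within cells with a UMI of Erbb3, a receptor gene of crest glia, it was 71.7 and 391.4 CPM, 2.45 (2.24 to 2.67), and within cells with a UMI of Cdh19, a cadherin gene of the Schwann lineage, 52.4 and 378.8 CPM, 2.85 (2.53 to 3.19). The difference was thus 5.59-fold in Sox10 cells and smallest, of the subsets named here, in cells with a UMI of Foxd3, at 79.0 and 345.4 CPM, 2.13 (1.90 to 2.37). By cell cycle phase the levels were 74.5 and 504.1 CPM in G1, 48.7 and 365.9 CPM in S and 39.4 and 316.3 CPM in G2M.

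In the mesenchyme the direction of Igfbp5 depended on the region. Over the whole class it was at 71.6 CPM in the control and 75.0 CPM in the mutant, a log2 ratio of 0.07 (0.00 to 0.13) that was -0.10 under the other cell filter and -0.03 with regions weighted as in the control. Mandibular-like cells had 21.6 and 11.8 CPM, -0.88 (-1.27 to -0.50), from 240 and 77 UMIs. Maxillary-like cells had 25.8 and 17.4 CPM, -0.57 (-0.85 to -0.29). Second arch-like cells, with the highest level of any region, had 322.0 and 183.8 CPM, -0.81 (-1.0 to -0.62). These arch regions were the lower ones in the mutant, whereas frontonasal-like cells had 49.8 and 61.8 CPM, 0.31 (0.13 to 0.49), and mural-like cells 132.3 and 176.9 CPM, 0.42 (0.11 to 0.73). Periocular and meningeal-like cells (170.7 and 175.1 CPM) and proximal arch-like cells (62.0 and 60.0 CPM) had intervals that included 0. The arch values rested on few cells. In mandibular-like cells the 10 richest held 46.2% of the control and 63.6% of the mutant UMIs. The shares were 47.3% and 75.4% in maxillary-like and 56.3% and 49.8% in second arch-like cells. The mandibular ratio was -0.32 at equal depth and -1.42 without the 10 richest cells of each library, which were a larger part of the 399 mutant than of the 759 control cells. The second arch ratio was -0.16 at the lower clustering resolution, where those cells were merged with the proximal arch, and -1.04 at equal depth. Shares of cells with a UMI at equal depth, 5.28% and 4.03% in mandibular-like and 29.5% and 23.7% in second arch-like cells, had overlapping intervals.

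Neural cells had moderate Igfbp5. Brain progenitors stood at 76.0 and 59.1 CPM, a log2 ratio of -0.36 (-0.51 to -0.21), and neurons at 40.2 and 40.5 CPM, 0.01 (-0.19 to 0.21). Isthmic progenitor-like cells, at the midbrain-hindbrain border, had 149.1 CPM in the control and 112.1 CPM in the mutant, -0.41 (-0.61 to -0.21). Sensory neuron-like cells, which share the ganglia with glia, had 2 control and 0 mutant UMIs, the latter allowing a level of up to 4 CPM.

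Igfbp7 was a gene of the frontonasal-like region, at 32.2 CPM in the control and 28.4 CPM in the mutant, a log2 ratio of -0.18 (-0.44 to 0.07). It took no part in the clustering and was still among the 10 leading genes of that region. Over the mesenchyme it was at 7.97 and 8.2 CPM, 0.04 (-0.16 to 0.24), and neurons and brain progenitors had at most 4 UMIs in either library. In glia it had 13 control and 0 mutant UMIs, which allows a level of up to 0.925 CPM (3 counts).

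Mural-like cells were the exception for Igfbp7, with 5 UMIs in the control and 103 in the mutant, 4.73 and 75.3 CPM. The log2 ratio was 3.99 (2.73 to 5.65), but all 5 control UMIs lay in 1 of 87 cells, and the 10 richest of 118 mutant cells held 86.4% of the 103. Igfbp7 reached 100 UMIs in this region only through the mutant. Summed muscle markers in the mural-like cells were at 0.945 CPM in the control and 106.7 CPM in the mutant, from 1 of 5 markers that was higher there, and summed endothelial markers at 57.6 and 36.5 CPM. Their part in the result was not tested. Igfbp7 overlaps Polr2b on the opposite strand, which had 69.7 and 66.4 CPM in the mesenchyme, so its reads cannot be assigned with certainty either.

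Igfbpl1 marked neurons. Its level there was 950.5 CPM in the control and 951.2 CPM in the mutant, a log2 ratio of 0.00 (-0.04 to 0.04), and 73.3% and 68.7% of neurons had a UMI at equal depth. Rhombic-lip and dorsal neuron-like cells, with Atoh1 and Barhl1, had the most, at 1708.3 and 1881.0 CPM, 0.14 (0.08 to 0.20). The groups led by Tfap2d (948.5 and 967.1 CPM), by Otp and Hmx2 (718.8 and 742.5 CPM) and by Sim1 (685.2 and 742.3 CPM) came next. Sensory neuron-like cells had 352.6 and 435.5 CPM, and inhibitory neuron-like cells 73.6 and 49.7 CPM, with an interval of the ratio that included 0. Brain progenitors had 29.2 and 27.8 CPM.

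**Figure D4:**
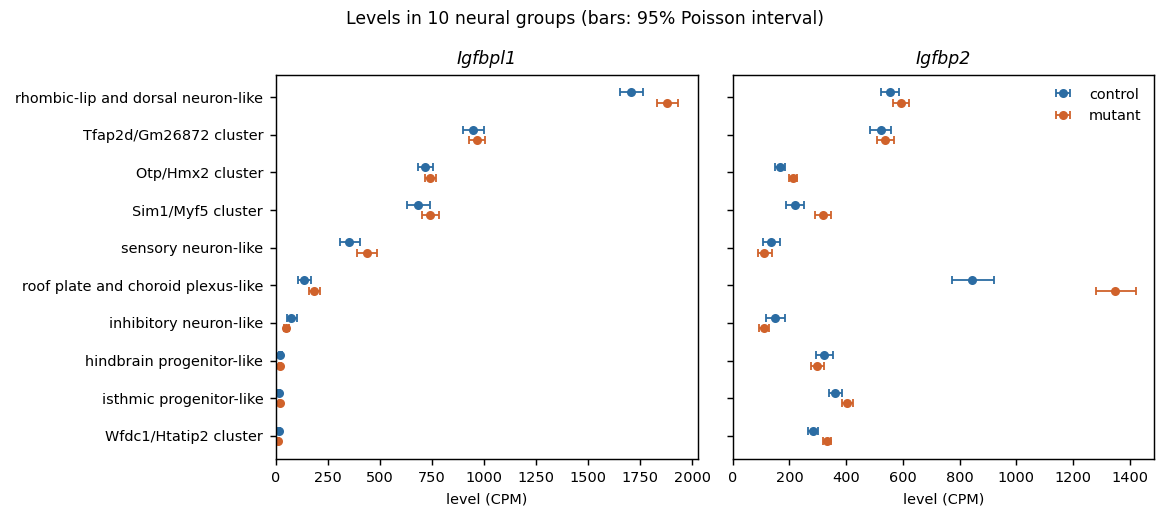
Levels of Igfbpl1 and Igfbp2 in 10 neural groups of both libraries, in CPM with 95% counting intervals. Igfbpl1 is highest in rhombic-lip and dorsal neuron-like cells (1708.3 and 1881.0 CPM) and Igfbp2 in roof plate and choroid plexus-like cells of the mutant (1348.3 CPM).

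In the mesenchyme Igfbpl1 was at 4.57 CPM in the control and 8.69 CPM in the mutant, a log2 ratio of 0.93 (0.70 to 1.16). Of its 269 control and 387 mutant UMIs there, 162 and 269 lay in a small cluster led by Pou3f2 and Otx2, of whose cells 77.2% were called doublets. Without this cluster and a second unnamed one of low depth the ratio was 0.49, and it was 0.03 when the cells were clustered without integration. Summed neuron markers in the mesenchyme were at 71.2 and 127.0 CPM, 6 of 7 being higher in the mutant. In each named region Igfbpl1 was at most 5.12 CPM, with intervals of the ratio that included 0. In glia it was at 44.1 and 34.8 CPM, -0.34 (-0.68 to -0.01), and this turned to 1.08 in cells with a UMI of Sox10.

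Counts of the Igf genes were read against those of all genes. A gene counted as measured with at least 100 UMIs over both libraries and as apart at 1.5-fold or more in either direction. In the mesenchyme 1 of 8 Igf genes, Igfbpl1, was apart, with 4.45% of all 12614 measured genes, and the median log2 ratio of the Igf genes was 0.05 against 0.02 for all genes. In neurons 0 of 5 were apart (2.51% of all genes) and in brain progenitors 0 of 5 (1.7%). In glia 2 of 6, Igf1 and Igfbp5, were apart (11.2%), the highest background of the classes. Igf1 had 46 control and 58 mutant UMIs there. It would not have reached 100 UMIs at its control level in both libraries, so this glial count is not to be set against the 11.2%. By region, 1 of 6 was apart in frontonasal-like cells (2.27% of all genes), 1 of 5 in mandibular-like cells (2.41%), 1 of 6 in maxillary-like cells (1.89%), 1 of 6 in mural-like cells (4.09%), 0 of 6 in periocular and meningeal-like cells (5.74%), 1 of 5 in proximal arch-like cells (2.87%) and 2 of 5 in second arch-like cells (4.61%). These were Igfbp2 in the frontonasal, Igfbp7 in the mural, Igfbp5 in the mandibular and Igf1 in the maxillary and proximal arch regions, with both Igf1 and Igfbp5 in the second arch, in opposite directions. The mural count was Igfbp7 alone, with 5 control and 103 mutant UMIs. It reached 100 UMIs there only through the mutant, so this count is not to be set against the 4.09%.

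**Figure D5:**
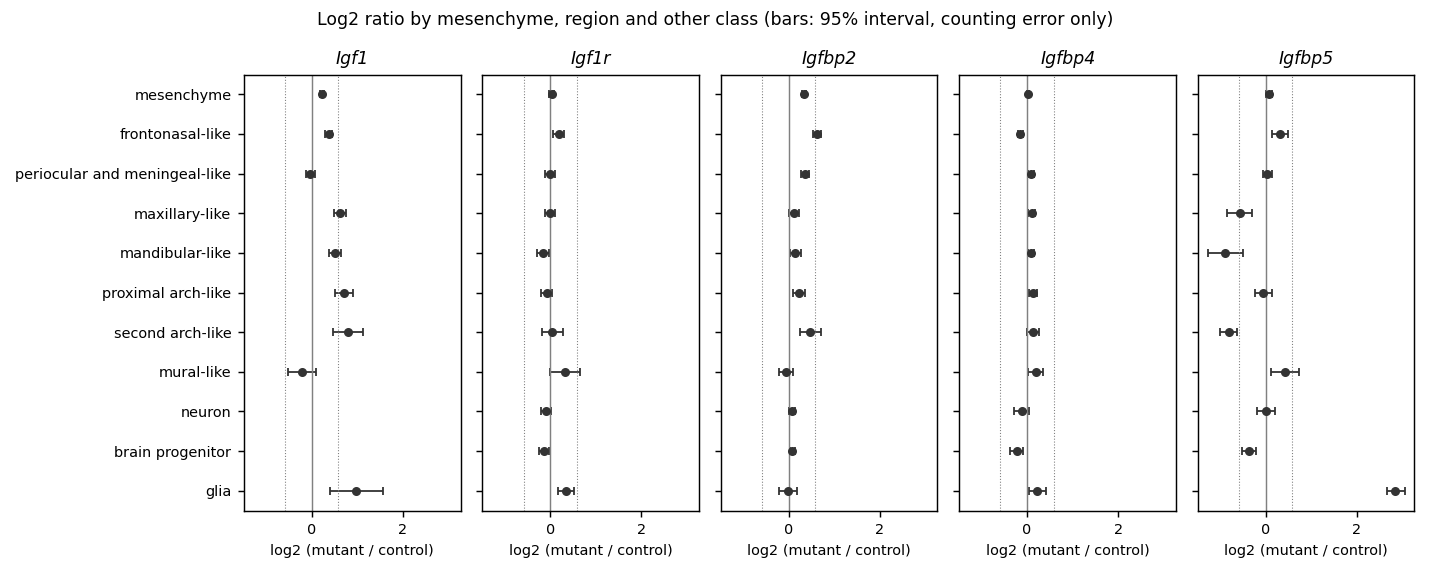
Log2 ratio of mutant over control for Igf1, Igf1r, Igfbp2, Igfbp4 and Igfbp5 in each cell class and mesenchyme region with at least 100 UMIs, with 95% counting intervals; the solid line marks 0 and dotted lines 1.5-fold in each direction. Igfbp5 runs from -0.88 in mandibular-like cells to 2.85 in glia, whereas Igf1r stays between -0.15 and 0.35.

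Other genes of the pathway were followed as a list of 25. In the mesenchyme 19 were measured, 3 were 1.5-fold or more higher in the mutant and 0 lower, with 4.45% of all measured genes apart in either direction, and the median log2 ratio of the list was 0.11. The 3 act on the availability or signal of the ligands. Pappa, a protease that cuts Igfbp4 and Igfbp5 and so frees ligand, was at 2.99 CPM in the control and 5.05 CPM in the mutant, a log2 ratio of 0.76 (0.46 to 1.05). Stc1, a stanniocalcin that inhibits that protease, was at 3.76 and 6.8 CPM, 0.86 (0.60 to 1.11), and Grb14, an adaptor that dampens insulin receptor signalling, at 2.26 and 3.53 CPM, 0.64 (0.30 to 0.98). All 3 were low, with 133 to 303 UMIs a library. In neurons Pappa stood higher, at 13.9 and 13.5 CPM, as did Grb14, at 10.6 and 8.53 CPM, whereas Stc1 was at 1.0 and 1.06 CPM. The mesenchyme class kept the cluster led by Pou3f2 and Otx2, mostly called doublets, and its part in these ratios was not tested. No ratio of a pathway gene was recomputed under the alternatives. Igf2, the second ligand, was at 114.0 and 111.9 CPM, -0.03 (-0.08 to 0.03). Igf2r, the receptor that clears Igf2, was at 42.3 and 48.7 CPM, 0.20 (0.12 to 0.29), and the insulin receptor gene Insr at 16.1 and 15.5 CPM, -0.06 (-0.20 to 0.08).

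In neurons 15 pathway genes were measured, of which 0 were higher and 1 was lower in the mutant (2.51% of all genes apart). This was Pappa2, a protease related to Pappa, at 17.4 and 7.1 CPM, a log2 ratio of -1.29 (-1.68 to -0.90). It rested on few neurons, since 10 cells held 69.1% of its control and 62.8% of its mutant UMIs, and it was a leading gene of the 26 control and 41 mutant sensory neuron-like cells. In brain progenitors 0 of 14 were 1.5-fold apart (1.7%). In glia 2 of 13 were higher and 0 lower, near the 11.2% of all genes apart there: Pik3r1, a regulatory subunit of the kinase below the receptor, at 42.3 and 82.3 CPM, 0.96 (0.70 to 1.23), and Ghr, the growth hormone receptor, at 12.2 and 22.8 CPM, 0.90 (0.40 to 1.41). Pappa2, Pik3r1 and Ghr were singled out after their values were seen.

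Cell cycle phase separated some Igfbps more than the libraries did. In mesenchyme cells scored as G1, Igfbp5 was at 181.1 CPM in the control and 174.0 CPM in the mutant, against 51.1 and 56.4 CPM in S and 49.7 and 46.3 CPM in G2M. Igfbp3 was at 15.5 and 14.6 CPM in G1, against 5.72 and 4.48 CPM in S. Igfbp2 was at 242.5 and 271.5 CPM in G1 and 133.7 and 173.2 CPM in G2M. Igf1 differed little, at 124.4 and 145.6 CPM in G1 and 144.6 and 165.0 CPM in G2M. The G1 cells were fewer (865 and 816 cells). Phases may have drawn on the regions in other proportions, which was neither counted nor adjusted for.

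The genes whose levels followed each Igf gene most closely were sought over 38 points, the 19 cell groups in both libraries, with Pearson's r on log2(CPM + 1) as a description. The points share libraries and depth and are not independent. Igf1 was closest to Pdgfra (r = 0.951), the receptor gene that marks mesenchyme, and Igfbp4 to Cped1 (0.963), Ddr2 (0.963) and Snai2 (0.959). Igfbpl1 was closest to Nrn1 (0.953), Dcc (0.945) and Nfasc (0.939), genes of neurites. Igfbp7 was closest to Rgs5 (0.828), a gene of pericytes, and Igfbp3 to Foxl1 (0.818). The first-listed genes of Igfbp2 (Qsox2, 0.791), Igfbp5 (Foxp4, 0.78) and Igf1r (Pdcd4, 0.624) had the lowest r among those of the Igf genes. No cutoff for a close match was set. Of the 24 genes so listed, 3 for each Igf gene, 7 were listed again from the control library alone. Of the genes named here, Cped1, Nrn1, Dcc and Foxl1 were listed again, and the others, Pdgfra and Rgs5 included, were not.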

How the data were processed

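The deposited files were 10x Genomics count matrices, 1 per library, in which each value is a whole-number count of UMIs per gene and cell, made by the authors with Cell Ranger 6.0.0 (per the file headers) on the mm10 genome. The authors pooled 2 embryos into each library and used Seurat 4.3.0 downstream, per the labels. Whether reads were counted by strand is not given in the sources used here. The same cell filter as in the study's methods was applied here (200 to 7500 genes and under 10% mitochondrial UMIs), which kept 5625 of 6148 control and 5587 of 6063 mutant barcodes, and libraries were integrated with Seurat 5.3.0 (2000 variable genes, 30 dimensions, resolution 0.05). The Igf genes, the pathway list, Tfap2a, Tfap2b, haemoglobin genes and sex-linked genes took no part in variable genes. Doublets were called with Scrublet (scanpy 1.11.5; 93 control and 171 mutant cells) and kept.

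Mesenchyme was divided at resolution 0.4 in place of the first planned 0.15, and neural cells at 0.2. These choices, and a minimum marker score of 0.5 (log2) for a name, were made after the clusters were seen, and the frontonasal-like, mural-like and proximal arch-like regions exist only at 0.4. UMIs were summed per library and cell group and scaled to CPM, with exact Poisson intervals for levels, exact conditional binomial intervals for ratios and Clopper-Pearson intervals for shares, all at 95% and covering counting error only. A count of 0 was taken to allow up to 3 counts. For shares and equal-depth ratios each cell was thinned to 5000 UMIs, shallower cells being left out (in the mesenchyme 83 control and 89 mutant cells, in glia 2 and 1). No p-value was computed, because each group was 1 library. The ratio and interval code was tested on simulated data.

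All 8 Igf genes are named. Of the pathway list, a gene is named if 1.5-fold or more apart in the mesenchyme with at least 100 UMIs, together with Igf2, Igf2r and Insr. For each Igf gene the 3 most correlated of 11322 genes with at least 500 UMIs were listed. The Igf genes and the lists were chosen with earlier results of these data known. Alternatives were TMM scaling (edgeR 4.0.16), equal weight per cell, thinning, doublet removal, removal of the 10 richest cells or of 5 control barcodes over 1% haemoglobin, other clustering and cell filters, and control region weights. The 10 richest cells were left out of each library whatever its number of cells, so they were a larger part of the smaller group. Leaving out the unnamed clusters and restricting glia to cells with Sox10 were added after seeing the data. Gene positions and overlaps came from GENCODE, and upstream sequences from RefSeq (GRCm38.p6). Some marker genes and 1 neural group are not reported here.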

Additional observations from a re-analysis of the deposited data

Results flagged for a closer look

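The genes Igf1r, Igfbp4 and Igfbp5 had ratios of mutant over control that lay on opposite sides of 0 in different cell groups, with counting intervals that excluded 0 on each side. For Igf1r the log2 ratio was 0.35 in glia and -0.15 in mandibular-like cells. For Igfbp4 it was 0.22 in glia and -0.23 in brain progenitors. For Igfbp5 it was 2.85 in glia and -0.88 in mandibular-like cells. With 1 library per group these differences between cell groups were not tested.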

How the results depend on the processing

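No paired analysis was possible because each group was 1 library, and no library could be left out. In all, 63 ratios were recomputed 390 times. Of these, 335 moved by less than their counting interval, 49 moved further and 6 changed sign although the main interval excluded 0. The sign of the main value was kept in 351, counting also ratios near 0. TMM scaling moved no ratio beyond its interval. The cause of the moves was not tested except where a setting left out cells or clusters. In the mesenchyme, equal weight per cell gave log2 ratios of 0.07 for Igfbp4 and 0.36 for Igfbp7. Thinning to 5000 UMIs gave 0.09 for Igfbp4, 0.17 for Igfbp5 and 0.65 for Igfbpl1. Igfbpl1 was 0.65 without called doublets, 0.68 without its 10 richest cells, 0.03 without integration, 0.26 with control region weights and 0.49 without the 2 unnamed clusters. Without the 10 richest cells Igfbp3 was -0.57 and Igfbp7 -0.19. The other cell filter gave -0.04 for Igf1r, -0.04 for Igfbp4 and -0.10 for Igfbp5, and control region weights 0.34 for Igf1 and -0.03 for Igfbp5. In glia, Igf1 was 0.37 without doublets and -0.01 without its 10 richest cells. Igfbp5 in glia was 3.30 without its 10 richest cells and 2.48 in Sox10 cells, where Igfbpl1 was 1.08. Thinning gave -0.02 for Igfbp2 in neurons, 0.42 for the frontonasal and -0.06 for the maxillary region. Igfbp5 was -0.32 thinned and -1.42 without the 10 richest cells in mandibular-like cells, and -1.04 thinned and -0.16 at the lower resolution in second arch-like cells, where Igf1 was 1.23 without its 10 richest cells. For Igfbp7 in mural-like cells that alternative gave no value, since all control UMIs lay in 1 cell. At the lower fold threshold planned, 2 of 8 Igf genes and 1512 of all 12614 measured genes were apart in the mesenchyme. At resolution 0.15 no frontonasal-like, mural-like or proximal arch-like cluster was formed, so the results for those regions have no value there. With a minimum of 30 UMIs the share of all genes 1.5-fold apart was 8.34% in mesenchyme, 6.42% in neurons, 4.97% in brain progenitors, 17.4% in glia, 6.01% in frontonasal-like, 6% in mandibular-like, 5.13% in maxillary-like, 12.1% in mural-like, 9.94% in periocular and meningeal-like, 6.6% in proximal arch-like and 12% in second arch-like cells. From the control library alone, 7 of the 24 genes most like an Igf gene were listed again.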
